A study of Mus musculus with 2 samples.

Results

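The enzymes of glycolysis, the pentose phosphate pathway and the tricarboxylic acid (TCA) cycle were followed in mouse primary T cells that had been stimulated with antibodies against CD3 and CD28, either alone or together with triptolide at 50 ng/ml. The members were a fixed list of 44 genes, and all probe sets of the array annotated to exactly 1 of them were taken. This gave 103 probe sets for 41 genes, out of 18193 genes named on the array in the same way. Gpi1, Eno1 and G6pdx had no probe set under this rule and were not analysed here. Probe sets were found for 10 of 12 glycolytic enzymes, 6 of 7 pentose phosphate enzymes and all 20 enzymes listed for the TCA cycle. The other 5 genes were the pyruvate dehydrogenase subunits Pdha1, Pdhb and Dlat, which bring pyruvate into the TCA cycle, and Acly and Me2, which use citrate and malate that leave or pass through it.

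Each group was a single Affymetrix array of total RNA. Both cultures were purified T cells kept for 18 h in serum-containing medium, and both carried the antibody stimulus, so the comparison is of triptolide on top of stimulation. Animal number, strain and age, how the cells were purified, and how long triptolide was present are not stated in the labels. With 1 array per group there was no test between the groups, and every difference below has no replicate check. In bulk RNA of this kind, fewer cells of a type and less RNA per cell cannot be told apart.

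Glycolysis splits glucose into pyruvate in the cytosol. The pentose phosphate pathway branches from it, with an oxidative arm that makes NADPH and a non-oxidative arm that exchanges sugar phosphates with glycolysis. The TCA cycle oxidises acetyl-CoA in mitochondria and feeds the respiratory chain. T cells that are activated through the T cell receptor and CD28 are known for a strong rise in glycolysis with lactate release. Triptolide binds the XPB subunit of the transcription factor TFIIH and inhibits transcription.

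Signals are MAS5 intensities on a linear scale. A background floor of 118 was set from receptor genes of smell and taste, which T cells are not expected to express, and signals under it were raised to it before ratios were taken. Where 2 signals of a probe set are given, the stimulated array comes first and the triptolide array second, and ratios are triptolide over stimulated. Each gene was represented by its brightest probe set, and a gene was detected if that signal was above the floor on at least 1 array. Of 10968 detected genes, 12.5% were at least 2-fold lower with triptolide and 5.63% at least 2-fold higher, and the median log2 ratio was -0.16. Lower genes made up 68.9% of these 2-fold differences as deposited, 58.2% after both arrays were scaled to their median, 50.9% after quantile normalization and 74.1% after scaling to 18 housekeeping genes. The median of all genes became -0.05, 0.00 and -0.22 in these settings. None of these scalings measures RNA per cell, so higher and lower below are relative to the rest of each array. Markers of the labelled cell type were present. All 8 T cell markers with a probe set were above the floor on both arrays, with summed signals of 51792.4 without and 37570.7 with triptolide, and 2 of them, Cd2 and Cd28, were at least 2-fold lower. Summed signals were 1093.8 and 1296.6 for 5 B cell markers (Pax5 under the floor on both arrays), 783.4 and 1099.5 for 6 myeloid markers (Itgam and Cd14 under the floor on both) and 679.4 and 1165.4 for 3 natural killer cell markers (Ncr1 under the floor on both). They were 578.6 and 292.4 for 5 neutrophil markers (S100a9 and Ltf under the floor on both) and 236.1 and 151.3 for 3 erythroid markers (Alas2 and Hba-a1 under the floor on both). Lyz2, a myeloid gene, was the 1 marker of these other cells that was at least 2-fold higher with triptolide. Its signals were 72.2 without triptolide, under the floor, and 259.5 with it, so the ratio is a bound of at least 2.19-fold. None of these other markers was at least 2-fold lower. The part of these cells in the results below was not tested.

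Of the 41 genes, 40 were detected. Of the detected genes, 6 were at least 2-fold lower with triptolide (15.0%, against 12.5% of all detected genes), none was at least 2-fold higher (5.63% of all detected genes), and 34 lay within 2-fold. The 6 lower genes were Aldoc and Pfkl of glycolysis, Taldo1 of the pentose phosphate pathway, Cs and Idh2 of the TCA cycle, and Pdha1, and their share lay near that of all genes. When probe sets whose probes are shared between transcripts or genes were left out, 28 members were detected. The ratios of 2 of them, Aldoc and Pfkl, are bounds there. Pfkl and Pdha1 were the 2 that were at least 2-fold lower. That is 7.14% of the members, under the 12.3% of all 9380 genes detected in that setting, so the members' share lay above or below that of all genes depending on the probe sets used. Log2 ratios were below 0 for 28 genes and above 0 for 12, beside 6603 below and 4363 above 0 among all 10968 detected genes. The signs of Pgam1, Pkm, Dlst, Sdhb, Fh1 and Acly turned with the scaling. The median log2 ratio was -0.36 over the 40 genes and -0.16 over all detected genes. By pathway, the median was -0.66 for glycolysis, 0.30 for the pentose phosphate pathway and -0.24 for the TCA cycle.

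**Figure D1:**
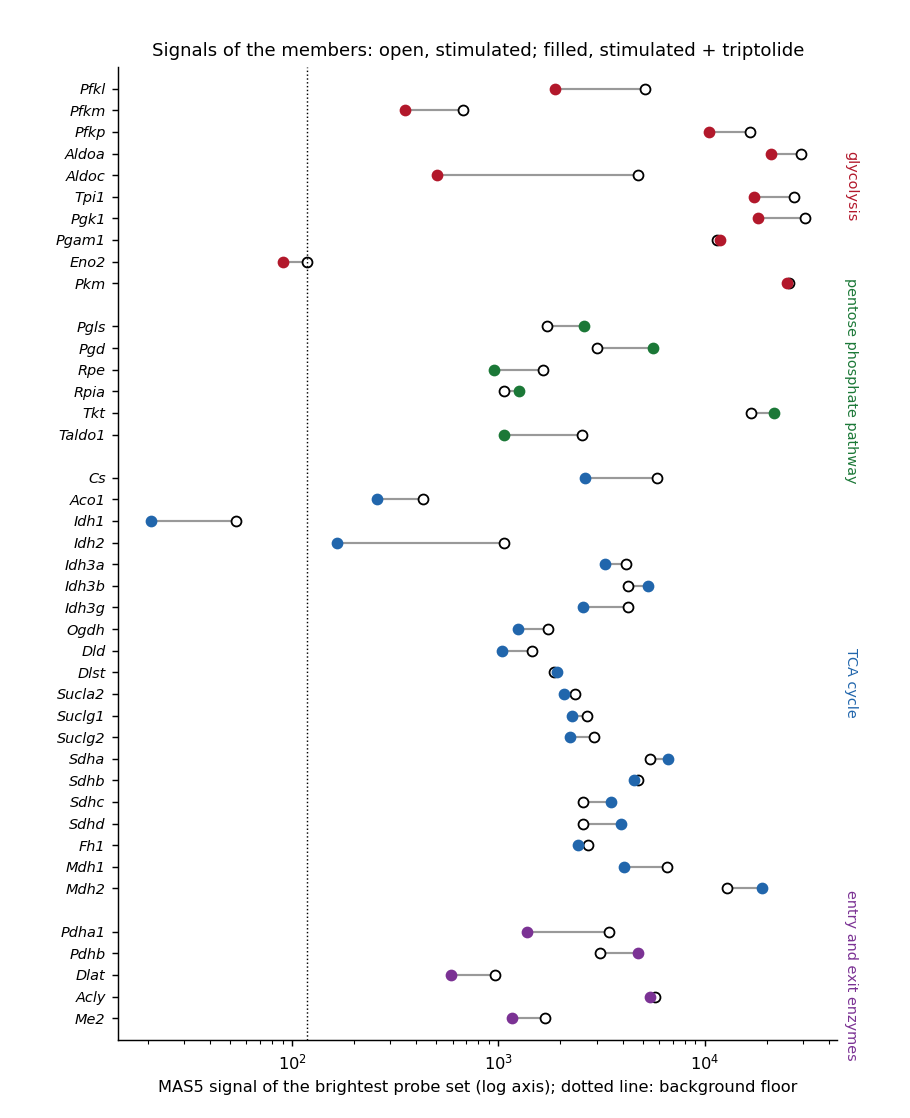
MAS5 signal of each member's brightest probe set on the stimulated array (open circles) and on the triptolide array (filled circles, coloured by pathway), on a logarithmic axis, with the background floor of 118 as a dotted line. The widest gaps are those of Aldoc and Idh2, Idh1 lies under the floor on both arrays, and signals of different probe sets are not comparable with each other.

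In glycolysis, 9 of the 10 detected enzymes had a log2 ratio below 0, beside 6603 of all 10968 detected genes. These 9 include Eno2, a bound at the floor, and Pkm, which has no direction. After median scaling 7 of 9 lay below 0, with Pgam1 and Pkm above it, and the median of all detected genes was -0.05. As deposited, 7 of the 10 lay below the median of all genes, but only 2 were at least 2-fold lower. Aldoc, the aldolase C isozyme that cleaves fructose bisphosphate, had signals of 4743.7 and 505.5, a 9.38-fold difference with the triptolide array lower. This ranked 10 from the lowest among the 10968 detected genes. The second Aldoc probe set was close to background, at 136.5 without triptolide and 13 with it, so it gives only a bound of at least 1.15-fold lower. The size of the Aldoc difference therefore rests on 1 probe set. Aldoa, the main aldolase of most tissues, had signals of 29457.4 and 20910.4, 1.41-fold lower, and its 5 probe sets had log2 ratios between -0.59 and -0.26. Both aldolases were lower on their brightest probe sets.

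The phosphofructokinases, which commit sugar to glycolysis, had log2 ratios below 0 for all 3 genes, and 1 of them, Pfkl, passed 2-fold. The liver-type gene Pfkl had signals of 5116.5 and 1881.6, 2.72-fold lower. Its second probe set was 2.50-fold lower (3725.6 and 1488.1), and the third, under the floor with triptolide, at least 2.07-fold lower. The muscle-type gene Pfkm had signals of 676.2 and 352.9, 1.92-fold lower on its single probe set, and past 2-fold (log2 ratio -1.01) after housekeeping scaling. The platelet-type gene Pfkp had signals of 16576.2 and 10499.1, 1.58-fold lower, and its 3 probe sets had log2 ratios between -0.73 and -0.59.

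Tpi1, triosephosphate isomerase, was 1.58-fold lower (27271.3 and 17264.2), with all 3 probe sets between -0.67 and -0.60. Pgk1, phosphoglycerate kinase, an ATP-forming step, had signals of 30502.9 and 18089.1, 1.69-fold lower. The other Pgk1 probe sets disagreed on the size, with 1.23-fold lower (20842.6 and 16934.2) and 5.80-fold lower (18863.2 and 3249.5). All 3 Pgk1 probe sets were lower, and the size of the difference is uncertain. Pgam1 and Pkm, each with 1 probe set, stood closest to no difference among the glycolytic members above the floor on both arrays. Phosphoglycerate mutase, Pgam1, had signals of 11439.3 and 11927.6 (log2 ratio 0.06, and -0.01 after housekeeping scaling). Pyruvate kinase, Pkm, had signals of 25732.6 and 25009.8 (log2 ratio -0.04, and up to 0.13 after other scalings), so neither has a direction. Eno2, a neuronal enolase isozyme, was at the floor, with 118.5 without and 90.8 with triptolide. As Eno1 had no probe set, the enolase step between Pgam1 and Pkm has no usable value among the members.

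The bases before the start of 4 glycolytic genes are shown because these genes span the range of ratios, from Aldoc and Pfkl, the lowest, over Pgk1 to Pgam1. They are the 250 bases before the most upstream start that RefSeq lists (GRCm38.p6), read 5′ to 3′ on the gene's strand. ACGTG, a form of the core letters of hypoxia response elements, is in capitals where it occurs on either strand. The other form, GCGTG, was not marked or counted, though it occurs in the Aldoc and Pfkl windows below. Glycolytic genes are textbook targets of HIF1, which binds hypoxia response elements.
Aldoc (chr11:78322823-78323072, plus strand): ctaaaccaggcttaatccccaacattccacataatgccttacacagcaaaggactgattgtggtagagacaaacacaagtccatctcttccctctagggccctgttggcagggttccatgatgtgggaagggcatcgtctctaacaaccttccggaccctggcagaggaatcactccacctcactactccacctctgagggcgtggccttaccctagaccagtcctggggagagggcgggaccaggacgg
Pfkl (chr10:78009808-78010057, minus strand): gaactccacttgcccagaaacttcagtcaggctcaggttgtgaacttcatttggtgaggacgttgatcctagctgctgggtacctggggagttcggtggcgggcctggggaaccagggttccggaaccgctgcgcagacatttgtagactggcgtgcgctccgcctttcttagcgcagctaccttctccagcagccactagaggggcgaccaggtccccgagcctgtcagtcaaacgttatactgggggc
Pgk1 (chrX:106186850-106187099, plus strand): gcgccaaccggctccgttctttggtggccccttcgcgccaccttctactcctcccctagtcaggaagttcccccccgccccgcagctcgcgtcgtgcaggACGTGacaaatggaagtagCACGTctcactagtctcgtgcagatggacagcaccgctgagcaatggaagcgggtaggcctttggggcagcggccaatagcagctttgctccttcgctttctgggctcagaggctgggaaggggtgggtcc
Pgam1 (chr19:41911621-41911870, plus strand): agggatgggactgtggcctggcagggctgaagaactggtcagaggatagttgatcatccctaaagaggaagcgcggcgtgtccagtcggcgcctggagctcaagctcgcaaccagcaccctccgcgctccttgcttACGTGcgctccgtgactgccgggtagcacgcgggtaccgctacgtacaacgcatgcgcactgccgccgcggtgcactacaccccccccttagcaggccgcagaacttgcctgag
The letters ACGTG occur 2 times in the Pgk1 window and 1 time in that of Pgam1, and not in those of Aldoc and Pfkl. RefSeq lists 2 starts for Aldoc, and the window before the other one does not hold the letters either. Windows were found for 41 of the 44 members, the unmeasured Gpi1, Eno1 and G6pdx included. Over both strands, 9 of these 41 (22%) had ACGTG in this window, against 16.5% of 27025 genes. GCGTG was not counted, and none of the 6 members that were at least 2-fold lower had ACGTG in this window. Pfkm, the next lowest glycolytic gene at -0.94, had it in this window, while Pfkp, Tpi1, Aldoa and Pkm did not. A link between the letters and the ratios was not tested. With every listed start counted, Aldoa and Pkm joined, giving 11 of 41 members (26.8%) against 18.5% of all genes. The hexamer CACGTG, an E-box that holds ACGTG on both strands, was found for Pfkm alone among the members, against 6.04% of all genes. GGGCGG, the GC box, was in 27 of 41 members (65.9%) and in 33% of all genes. TATAAA, the TATA box, was in 1 of 41, Eno2, and in 13% of all genes. These windows were richer in G and C among the members, with a median of 60.4% against 52%. A match says only that the letters are present in this window. For Idh3a, Sdhc and Me2 no window was at hand, and they were not searched.

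**Figure D2:**
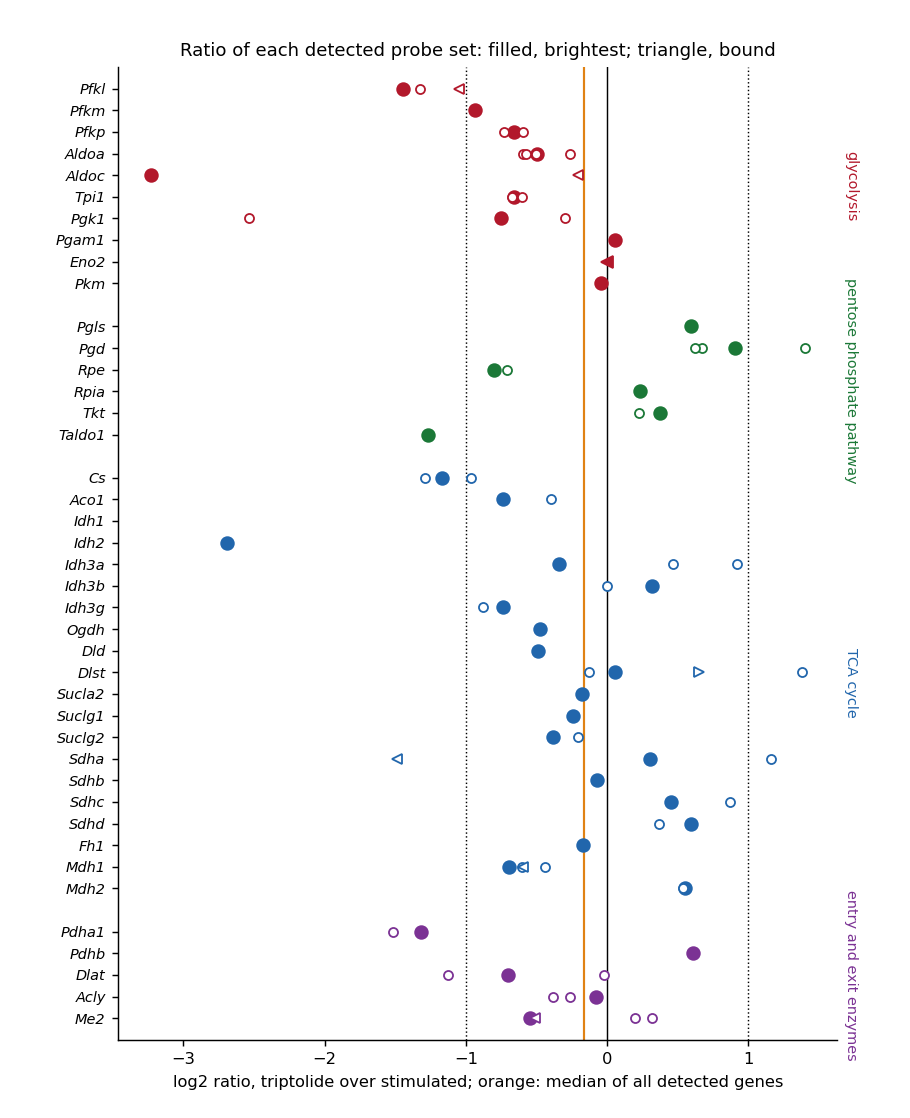
Log2 ratio (triptolide over stimulated) of each detected probe set by gene, with the brightest probe set filled, the others open, and triangles where 1 array was under the floor so that the ratio is a bound. Dotted lines mark 2-fold, the orange line the median of all detected genes at -0.16. Aldoc, Pgk1, Idh3a, Dlst, Sdha and Dlat have probe sets that lie apart by more than 1.

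In the pentose phosphate pathway 4 of the 6 detected genes had a log2 ratio above 0, beside 4363 of all 10968 detected genes. These were Pgls and Pgd of the oxidative arm and Tkt and Rpia of the non-oxidative arm, while Taldo1 and Rpe had one below 0. With 2 genes measured in the oxidative arm, the arms were not compared. By the brightest probe set, 1 of the 6 genes passed 2-fold in the lower direction and none in the higher. Pgls, which opens the lactone formed in the first oxidative step, had signals of 1718.7 and 2598.8, 1.51-fold higher. Pgd, phosphogluconate dehydrogenase, which makes NADPH, had signals of 3001.4 and 5623.5, 1.87-fold higher. The other 3 Pgd probe sets were 1.59-, 1.54- and 2.64-fold higher, so all 4 had the same direction. All 4 are of the kind whose probes are shared between transcripts or genes, so Pgd had no value without such probe sets. After median scaling the log2 ratio of Pgd was 1.03 and after quantile normalization 1.04, which takes it past 2-fold.

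In the non-oxidative arm, Taldo1, transaldolase, was 2.41-fold lower (2557.4 and 1060) on its single probe set. Rpe, which interconverts the pentose phosphates ribulose and xylulose phosphate, was 1.74-fold lower (1654.5 and 951.1), and its second detected probe set had a log2 ratio of -0.71. Tkt, transketolase, which shares substrates with Taldo1, had signals of 16716.3 and 21647.5, 1.29-fold higher, and its other detected probe set 7604 and 8878.4. Rpia, ribose phosphate isomerase, had signals of 1069.1 and 1257.4, with a log2 ratio of 0.23. The median of the 6 genes stayed between 0.23 and 0.47 under the 3 other scalings.

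Pyruvate dehydrogenase, the complex that turns pyruvate into acetyl-CoA, was split between its subunits. Pdha1, the catalytic alpha subunit and the site of inhibitory phosphorylation, had signals of 3426.3 and 1374.4, 2.49-fold lower, and its second probe set was 2.86-fold lower (3191.2 and 1117.2). Pdhb, the beta subunit that pairs with it, had signals of 3120.2 and 4749.5, 1.52-fold higher, on the 1 probe set above the floor. The log2 ratios of the pair were -1.32 and 0.61, and both signs held under all 3 other scalings. Dlat, the acetyltransferase core, was 1.62-fold lower (962.3 and 592.3), with its other probe sets at log2 ratios of -1.12 and -0.02. Dld, the dehydrogenase subunit shared with the 2-oxoglutarate dehydrogenase complex, was 1.40-fold lower (1459.3 and 1040.4).

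In the TCA cycle, 19 of 20 genes were detected, 2 of them at least 2-fold lower and none at least 2-fold higher. The median of -0.24 lay close to that of all genes. Cs, citrate synthase, which starts the cycle, had signals of 5877.3 and 2616.7, 2.25-fold lower. Its other probe sets were 1.95-fold (4621.1 and 2364.8) and 2.45-fold lower (4704.3 and 1921.6), so all 3 agreed in direction. Idh2, the NADP-dependent isocitrate dehydrogenase of mitochondria, had signals of 1062.3 and 164.5, 6.46-fold lower, rank 29 from the lowest among all detected genes. The other Idh2 probe set was under the floor on both arrays (117.4 and 108.2), so this difference too rests on 1 probe set, and its triptolide signal is near the floor.

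Idh3, the NAD-dependent isocitrate dehydrogenase of the cycle, was not uniform. The regulatory subunit gene Idh3g was 1.66-fold lower (4258.7 and 2561.6) and -0.88 on the log2 scale on its other probe set. Idh3b had signals of 4235.7 and 5293.7, with a log2 ratio of 0.32 on the brightest probe set and of 0.00 on the second (3017.3 and 3014.1). For the catalytic subunit gene Idh3a the brightest probe set had a log2 ratio of -0.34 (4166.9 and 3291.4), while the others were higher (258.7 and 357.5 on one, 195.8 and 371.3 on the other), so it has no direction. Idh1, the cytosolic NADP-dependent form, was under the floor on both arrays on both probe sets. Aco1, the cytosolic aconitase that also acts as an iron sensor, was 1.67-fold lower (429.9 and 257.5).

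In the 2-oxoglutarate dehydrogenase complex, Ogdh was 1.39-fold lower (1731.7 and 1248.4). Its succinyltransferase gene Dlst had signals of 1853.2 and 1931 on the brightest probe set, with a log2 ratio of 0.06 that was -0.01 after housekeeping scaling. A dimmer Dlst probe set was 2.61-fold higher (275.1 and 717), another, under the floor without triptolide, was at least 1.57-fold higher (73.5 and 186), and a further one was slightly lower (164.5 and 150.4, log2 ratio -0.13). The size of any Dlst difference is therefore uncertain. The 3 genes of succinyl-CoA ligase lay close together. Suclg1, the common alpha subunit, had a log2 ratio of -0.24 (2686.2 and 2272.7), Sucla2, the ATP-forming beta subunit, -0.18 (2363.5 and 2087.4), and Suclg2, the GTP-forming beta subunit, -0.38 (2898.9 and 2223.1).

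Succinate dehydrogenase is both a TCA enzyme and complex II of the respiratory chain. As deposited, 3 of its 4 genes lay above 0, beside 4363 of all 10968 detected genes. After median and quantile scaling all 4 did, but these scalings also raised the median of all genes, from -0.16 to -0.05 and 0.00. Sdhd, a membrane anchor, was 1.51-fold higher (2584.5 and 3910.9) and Sdhc, the other anchor, 1.37-fold higher (2565.9 and 3518.1), each with a second probe set in the same direction. Sdhb, the iron-sulphur subunit, had signals of 4745.1 and 4525.6, with a log2 ratio of -0.07 that turned to 0.06 after median scaling. Sdha, the flavoprotein subunit, had a log2 ratio of 0.30 (5415.7 and 6675.6). Its second probe set was 2.24-fold higher (2745.1 and 6156.7), and a dim one, under the floor with triptolide, at least 2.80-fold lower (331.6 and 115.7), so the direction of Sdha is uncertain. Fh1, fumarate hydratase, had a log2 ratio of -0.17 (2721.9 and 2424.4), near the median of all genes and up to 0.00 after quantile normalization.

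The malate dehydrogenases of the cytosol and of mitochondria differed in opposite directions. Mdh1, the cytosolic enzyme, had signals of 6588.2 and 4074.8, 1.62-fold lower. Its other probe sets with signal on both arrays were 1.52- and 1.36-fold lower, and a dim one at least 1.51-fold lower. Mdh2, the mitochondrial enzyme that closes the cycle, had signals of 12891.2 and 18955.7, 1.47-fold higher, and its other probe set 9325.1 and 13521.7. Both signs held under all 3 other scalings. The succinate dehydrogenase genes with Fh1 and Mdh2 had a median log2 ratio of 0.38, with 4 of 6 above 0, beside 4363 of all 10968 detected genes. Sdha, of uncertain direction, is among the 4. The 11 mitochondrial enzymes from citrate synthase to succinyl-CoA ligase had a median of -0.38. Of them, 9 lay below 0, beside 6603 of all 10968 detected genes. This division of the cycle was drawn after the values were seen, so the contrast describes these values and gives the division no support. With the median over each gene's probe sets, from the same 2 arrays, the first median was 0.39. The second was -0.29, with 8 of 11 below 0, where the median of all detected genes was -0.16. Without shared probe sets, 3 of the 6 and 8 of the 11 genes remained.

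**Figure D3:**
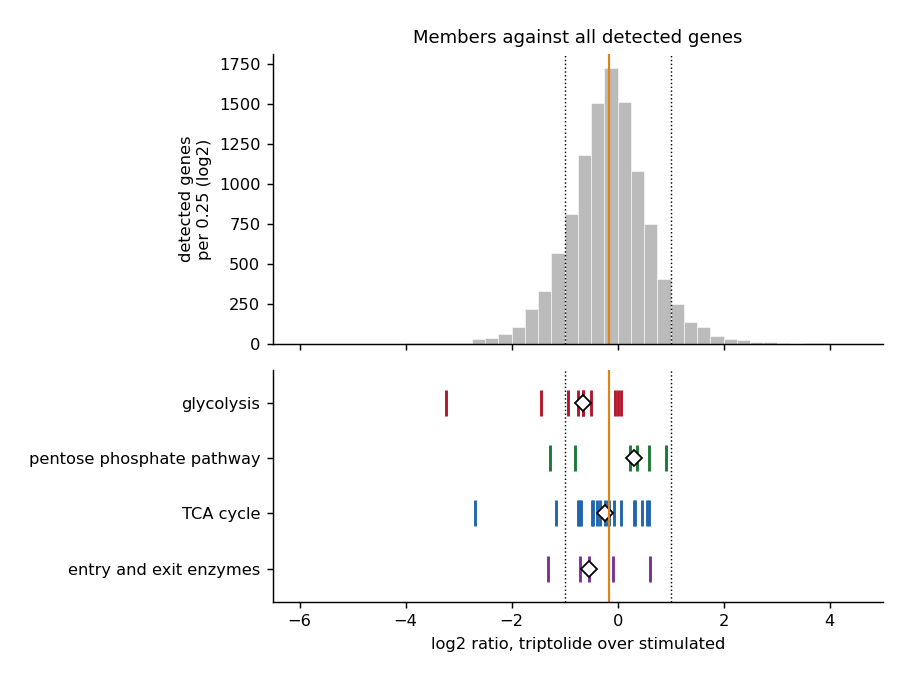
Upper panel, number of detected genes per 0.25 of log2 ratio (triptolide over stimulated) for all 10968 detected genes. Lower panel, each detected member as a tick by pathway with the pathway median as a diamond. The orange line is the median of all genes at -0.16, and dotted lines mark 2-fold. The medians are -0.66 for glycolysis, 0.30 for the pentose phosphate pathway, -0.24 for the TCA cycle and -0.54 for the entry and exit enzymes.

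Of the enzymes that use TCA intermediates elsewhere, Acly, which splits citrate into cytosolic acetyl-CoA for lipid synthesis, had signals of 5770.8 and 5457.6, with a log2 ratio of -0.08 that was 0.04 after median scaling. The other Acly probe sets above the floor were both lower, with log2 ratios of -0.26 and -0.39. Me2, a mitochondrial malic enzyme, had signals of 1691.8 and 1160.9 on the brightest probe set, 1.46-fold lower. Of its dimmer detected probe sets, 2 were higher (423.9 and 485.3 on one, 161.5 and 201.4 on the other) and 1 was at least 1.42-fold lower (168.3 and 11.9), so Me2 has no direction.

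The list of other genes of sugar uptake, glycolysis and lactate handling was chosen with earlier results of these data known. Of its 17 detected genes, 9 (52.9%) were at least 2-fold lower, against 12.5% of all detected genes. None was at least 2-fold higher (5.63% of all), and the median log2 ratio was -1.09. After median or quantile scaling 8 of the 17 were lower, against 9.90% and 8.43% of all detected genes. In both settings 1, the lactate transporter gene Slc16a1, was higher by this rule, against 7.11% and 8.12% of all. The lower genes as deposited included Hk2, Pfkfb3, Ldhb, Slc2a1, Slc2a3 and Slc16a3. Also among them were the phosphoglucomutases Pgm1 (3.32-fold, 3136.2 and 943.4) and Pgm2 (2.13-fold, 1219.8 and 572.4), enzymes that interconvert sugar phosphates. The last was Pfkfb4 (at least 2.91-fold, under the floor with triptolide), a regulator of phosphofructokinase. Of these 9 genes, Pgm2 lay within 2-fold after median and quantile scaling. The second detected Pfkfb3 probe set had a log2 ratio of -0.47 on floored signals, so the size of its difference is uncertain. Hk1, a hexokinase, was 1.91-fold lower (3983.5 and 2085.7), and Ldha, lactate dehydrogenase A, 1.67-fold (36537.6 and 21832.4). The muscle enolase gene Eno3 was 1.74-fold higher (878.3 and 1532.6). Among other pentose phosphate genes, 1 of 4 detected was at least 2-fold higher, beside 5.63% of all detected genes. This was the ribokinase gene Rbks (254.2 and 519.3, 2.04-fold, and 1.95-fold after housekeeping scaling). Around the TCA cycle, 2 of 10 detected genes (20%) were at least 2-fold lower, beside 12.5% of all detected genes. They were Pdk1, a kinase that inhibits pyruvate dehydrogenase, and Pck2, the mitochondrial phosphoenolpyruvate carboxykinase (at least 6.87-fold, 813.1 and 11.9). Pdk1 lay within 2-fold after median and quantile scaling. Nuclear genes of oxidative phosphorylation, the step after the TCA cycle, had a median of 0.05 over 82 detected genes. Of these, 5 (6.10%) were at least 2-fold lower, under the 12.5% of all detected genes. By the same rule 2 were higher, beside 5.63% of all. The median of these genes was -0.03 after housekeeping scaling.

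The agreement of probe sets gives a guide to how far probes for a gene differ on the same arrays. In 24 members with 2 or more probe sets whose signals both exceeded the floor, the brightest 2 had the same sign in 21 (87.5%), and over 3733 such genes of the array in 72.0%. The exceptions were Idh3a, Idh3b and Me2. Over all such genes the robust SD of the log2 ratio between probe sets was 0.39 per probe set. This SD covers probe behaviour and not the spread between cultures, RNA preparations or arrays, which are common to the probe sets. Of the members' 85 detected probe sets, 13 were 2-fold or more below and 3 were 2-fold or more above the stimulated array, beside 12.8% and 5.69% of all 19209 detected single-gene probe sets. The 3 higher ones belonged to Pgd, Dlst and Sdha.

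**Figure D4:**
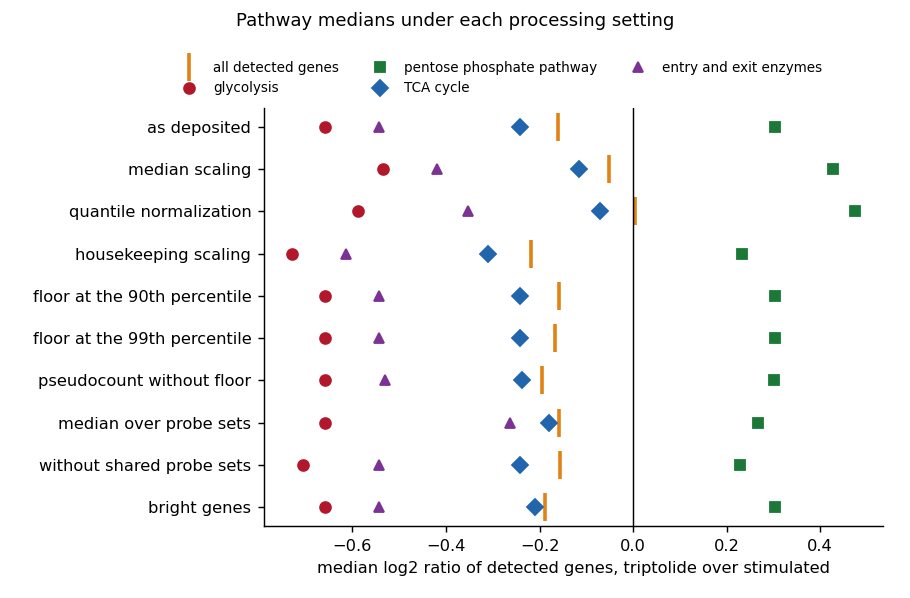
Median log2 ratio (triptolide over stimulated) of the detected members of each pathway, and of all detected genes (orange), under each processing setting. In all 10 settings the glycolysis median lies below and the pentose phosphate median above that of all genes, and the TCA median lies within 0.1 of it.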

How the data were processed

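Signals of 45037 probe sets on 2 arrays were used, 1 per group, grouped by the treatment label. The deposited values are intensities on a linear scale, computed by the authors with MAS5 per the submitters' processing notes, and no source used here gives its version or scaling. Scaling can shift all ratios of an array together, so directions were checked under 3 other scalings. Such a check cannot tell a transcript that rose from one that fell less than the rest. Of the probe sets, 34945 had 1 gene symbol, 932 several and 9160 none. Symbols were updated through Entrez numbers in RefSeq (GRCm38.p6), matched for 34741. The floor was the higher of both arrays' 95th percentiles of 87 chemosensory receptor probe sets. A gene was represented by its probe set of highest floored signal, averaged on the log2 scale.

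Members and lists were chosen with earlier results of these data known. All members are named, with full values for those at least 2-fold different, for isozymes and subunits, and where probe sets disagreed. Of other pathway genes, those at least 2-fold different are named, and Hk1, Ldha and Eno3 were added after their values were seen. Calculations used Python 3.11.15, pandas 2.3.3 and numpy 2.4.6 and were checked on simulated data. The precision is limited by the number of arrays.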

Additional observations from a re-analysis of the deposited data

How the results depend on the processing

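No paired analysis was possible because each group has 1 array, and no array could be left out. Alternatives were 3 scalings (array median, quantile, 18 housekeeping genes), floors at the 90th and 99th percentiles, a pseudocount of 32 without a floor, the median over probe sets, leaving out probe sets with probes shared between transcripts or genes, and only genes whose average signal reached 4 times the floor. A value was taken as moved where it changed by more than the robust SD between probe sets (for medians, by the standard error that SD gives), and a count where it changed by more than 1.5 times. None of the 6 members that were at least 2-fold lower changed sign where it could be measured in these settings, while Idh3a, at -0.34 as deposited, was at 0.47 with the median over probe sets and without shared probe sets. After median scaling and quantile normalization 1 pentose phosphate gene, and so 1 member in all, was at least 2-fold higher, where none was as deposited. That is 1 of 39 members, beside 7.11% and 8.12% of all genes in these settings. The same 2 settings moved the TCA median to -0.12 and -0.070 and that of all members to -0.26 and -0.21. With the median over probe sets, all members had a median of -0.25 and the entry and exit enzymes of -0.26, and Aldoc a log2 ratio of -1.72. Without shared probe sets 28 members remained to be counted, and 2 were at least 2-fold lower (7.14%, against 12.3% of all genes there), 1 of glycolysis (Pfkl), 0 of the pentose phosphate pathway, 0 of the TCA cycle and Pdha1. The brightest probe sets of Aldoc, Pfkl, Taldo1, Cs and Idh2 are of the kind left out there, as are all Pgd probe sets. On those that are left Cs had -0.97, while Aldoc at -0.21 and Pfkl at -1.05 are bounds. Both were under the floor with triptolide. Quantile normalization left 900 of all genes at least 2-fold lower. Among the 5522 genes reaching 4 times the floor, 767 were at least 2-fold lower and 315 higher, which follows from the smaller number of genes counted.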

Other observations

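Among nuclear genes named as subunits or assembly factors of oxidative phosphorylation, the 5 that were at least 2-fold lower with triptolide were Ndufb2 (2546.7 and 710.2), Ndufs8 (5234.2 and 2291) and the assembly factors Ndufaf5 (630.5 and 188.4) and Ndufaf3 (556.2 and 256.3), all of complex I, and the ATP synthase gene Atp5c1 (12489.4 and 5539.5). The 3 detected Ndufb2 probe sets had log2 ratios from -1.84 to -0.34, so the size of its difference is uncertain. The second Atp5c1 probe set had a log2 ratio of 0.24, so its direction is uncertain. All 6 detected Ndufs8 probe sets were lower, with log2 ratios between -1.91 and -0.95. The 2 that were at least 2-fold higher were Atp5j (7295.7 and 16682.6), an ATP synthase coupling factor, and Cox6b2 (119.7 and 483.4), a testis isoform of a cytochrome oxidase subunit that was near the floor without triptolide. These genes were chosen by the 2-fold rule on the values shown.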
